A study of Mus musculus with 24 samples.

Results

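AGO2 knockout (KO) and wild-type (WT) E14 mouse embryonic stem cells were compared on day 1 of differentiation towards extraembryonic endoderm, across all genes. The comparison rests on 4 of the 24 samples of the series, chosen by their labelled genotype and day, with 2 KO libraries set against 2 WT libraries. Both groups carried the 129/Ola background and were exposed to the same mixture, RPMI medium with 15% serum, 0.1 µM all-trans retinoic acid and 10 ng/mL Activin A, so the groups differ in their labels only by the AGO2 genotype. The KO group is labelled as AGO2 knockout cells and the WT group as wild-type cells. Neither the KO clone nor the deleted part of the gene is given for these libraries, so a clone and the genotype cannot be told apart. Polyadenylated RNA was sequenced, and the values are reads counted per gene. Nothing in the labels says that the replicates came from separate cultures. The p-values therefore reflect the spread between libraries, which may be technical.

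Argonaute proteins are the core of the RNA-induced silencing complex. They hold a microRNA (miRNA) whose seed, bases 2 to 8, pairs with sites in the 3′ untranslated region (UTR) of a messenger RNA and lowers its stability and translation, with TNRC6 proteins and the CCR4-NOT deadenylase as partners. AGO2 is the member of the mammalian family best known for cutting perfectly paired targets. Extraembryonic endoderm forms the yolk sac. Its precursors depend on the transcription factors GATA6, GATA4, SOX17 and SOX7, take up nutrients through the cubilin, megalin and DAB2 uptake machinery, and lay down a basement membrane rich in laminin and type IV collagen.

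The miRNAs of the miR-290 cluster are abundant in mouse embryonic stem cells, and those of the miR-302 cluster are found in embryonic and epiblast cells. Their seeds are shown because they are used for the target counts given further on. Mature sequences are from RefSeq (GRCm38), 5′ to 3′, with the seed in capitals.
mmu-miR-294-3p: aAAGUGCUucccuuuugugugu
mmu-miR-302b-3p: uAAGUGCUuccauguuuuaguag
mmu-miR-17-5p: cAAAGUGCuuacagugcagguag
The miR-294-3p and miR-302b-3p seeds are identical. The miR-17-5p seed shares 6 of its letters with them, shifted by 1 base, so sites of the families overlap in part. The following 23-base windows of 3′ UTRs hold the letters AGCACTT, the match to the shared seed, in capitals. They belong to genes that were higher in KO cells, and positions are on GRCm38.
Asf1a, chr10:53608135-53608157, plus strand: tttatatgtaattaaAGCACTTa
Gfpt2, chr11:49838450-49838472, plus strand: ttcttaagcccaggcAGCACTTt
Pax6, chr2:105696449-105696471, plus strand: gaaatggcggttagaAGCACTTc
Rragd, chr4:33018916-33018938, plus strand: ctttaaaataaaatgAGCACTTt
Smyd1, chr6:71214109-71214131, minus strand: aggattttcctacaaAGCACTTt
Lefty1, chr1:180938198-180938220, plus strand: ctgcactgtatgcgaAGCACTTa
A match is a description of letters and not evidence that the site is used.

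The libraries held 25954555 and 23604078 counts in KO cells, against 24446291 and 22966542 counts in WT cells. KO replicate 2 stood apart. It differed from KO replicate 1 by a median of 0.24 (absolute log2 difference over tested genes), whereas KO replicate 1 differed from WT replicate 1 by 0.202 and the WT replicates differed by 0.149. Ribosomal protein genes held 9.13% and 12.4% of the counts in KO libraries, against 7.80% and 6.81% in WT libraries. Counts of each pair of libraries differed beyond sampling, with a chi-square of 15.9 to 140 times its degrees of freedom, and none was merged.

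With edgeR's quasi-likelihood test on 17694 genes, 2406 genes passed a Benjamini-Hochberg adjusted p of 0.05, which is 13.6% of the genes tested. Of these, 1219 were higher in KO cells (6.89%) and 1187 were lower (6.71%). In all 2406 called genes the KO and WT values did not overlap. Uncalled genes such as Pou5f1, Sox2 and Uhrf1 did not overlap either, so a lack of overlap is no support by itself. Its share over all tested genes is not given here. Scaling by total counts without TMM changed the split to 763 higher and 1528 lower, because it moved the median of all genes to -0.12 from -0.02 (log2). The calls leaned on single libraries. Without KO replicate 2 only 45 genes were called, without WT replicate 2 only 63, without WT replicate 1 657, and without KO replicate 1 4225. The genes called in the fit of all libraries and in each of the 4 fits that left out a library numbered 38, or 0.215% of the genes tested, of which 15 were higher and 23 lower in KO cells. For the gene groups below, calls without KO replicate 2 are stated beside those from all libraries. Losses of a call in a fit with the trend over transcript length removed, described further on, are stated for the main groups. The members of these groups were chosen with earlier results of these data known. Their counts and medians therefore describe the lists and are not independent support. Each count of members is to be read beside the 6.89% of all genes called higher and the 6.71% called lower.

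Those 38 genes included Ago2 itself, extraembryonic endoderm genes and a set of genes from unrelated pathways. Ago2 (chr15:73095844-73184935, minus strand) had 43.4 and 33.8 CPM (counts scaled to 1000000 per library) in KO cells, against 332 and 414 CPM in WT cells. The log2 fold change, KO over WT throughout, was -3.27 ± 0.31 (SE), with an edgeR adjusted p of 0.000318, so reads of the gene remained in the KO libraries at a low level. Cubn, the cubilin receptor, had 0.735 and 0.829 CPM in KO cells, against 30.3 and 56.6 CPM in WT cells, a log2 fold change of -5.79 ± 0.44. Dab2, the adaptor for uptake by cubilin and megalin, had 10.5 and 7.78 CPM in KO cells, against 34.8 and 45.6 CPM in WT cells. For both genes the higher KO value was far below the lower WT value. Klb, the co-receptor for FGF15, FGF19 and FGF21, had 0.425 and 0.184 CPM in KO cells, against 2.68 and 2.78 CPM in WT cells, a log2 fold change of -3.10 ± 0.39.

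The type IV collagen pair fell together. Col4a1 had 16 and 8.75 CPM in KO cells, against 84.6 and 92.4 CPM in WT cells, a log2 fold change of -2.84 ± 0.30. Col4a2 had 8.54 and 5.99 CPM in KO cells, against 42.4 and 49.0 CPM in WT cells, a log2 fold change of -2.65 ± 0.26. These genes lie head to head on chromosome 8 and are transcribed in opposite directions. The RefSeq promoter window of Col4a1 (GRCm38.p6, chr8:11312777-11313076, minus strand) is printed because both genes moved by a like amount. Its capitals mark the 78 bases (chr8:11312777-11312854) that it shares with the window of Col4a2.
Col4a1 promoter: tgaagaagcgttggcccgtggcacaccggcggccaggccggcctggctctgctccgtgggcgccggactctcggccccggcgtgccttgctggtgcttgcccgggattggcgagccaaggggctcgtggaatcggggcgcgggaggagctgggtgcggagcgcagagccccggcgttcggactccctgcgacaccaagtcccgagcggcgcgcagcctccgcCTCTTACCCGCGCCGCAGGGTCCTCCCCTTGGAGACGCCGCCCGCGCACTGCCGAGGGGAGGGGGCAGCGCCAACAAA
The window has a GC content of 74.0% and holds no AGATAA or TTATCT, a form of the GATA factor motif read on both strands. Other forms of the motif were not searched. Promoter windows were available for 18 of the genes lower in KO cells in all 5 fits. Of these, 2 hold AGATAA or TTATCT (11.1%), against 12.7% of all genes with a window. The shares were close for this form, and control by GATA factors was not tested.

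Other genes lower in all 5 fits came from several pathways. Hipk1, a nuclear kinase, had 25.2 and 20.2 CPM in KO cells, against 61.6 and 74.4 CPM in WT cells. Gpc1, a cell-surface heparan sulfate proteoglycan, had 39.9 and 44.8 CPM in KO cells, against 93.6 and 110 CPM in WT cells. Trim56, a ubiquitin ligase of innate immune signalling, had 16.7 and 11.1 CPM in KO cells, against 36.2 and 41.4 CPM in WT cells. Each was lower in both KO libraries than in either WT library, as the naming rule required. Pfas, an enzyme of purine synthesis, and Ctc1, a telomere maintenance factor, are neighbours on chromosome 11. Pfas had 76.4 and 63.3 CPM in KO cells, against 182 and 227 CPM in WT cells. Ctc1 had 71.5 and 67.0 CPM in KO cells, against 149 and 147 CPM in WT cells. The next gene on the far side of Ctc1, Aurkb, a mitotic kinase, was not called (log2 fold change -0.04). Mageb16, a melanoma antigen family gene on the X chromosome, had 3.94 and 3.13 CPM in KO cells, against 12.4 and 13.6 CPM in WT cells. Genes below a mean of 5 CPM in this set included Srgn (-2.34), Mmp28 (-2.38), Dram1 (-2.30), Slco2a1 (-2.27), Nxf7 (-2.12) and Nostrin (-2.95, all log2 fold changes).

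The genes higher in all 5 fits included metabolic enzymes, a muscle methyltransferase and an RNA helicase. Aass, the first enzyme of lysine breakdown, had 66.0 and 78.1 CPM in KO cells, against 6.25 and 6.73 CPM in WT cells, a log2 fold change of 3.47 ± 0.37. Pax6, a regulator of eye and neural development, had 15.2 and 17.1 CPM in KO cells, against 2.32 and 3.53 CPM in WT cells. Irak3, an inhibitor of Toll-like receptor signalling, had 8.58 and 8.33 CPM in KO cells, against 1.96 and 1.35 CPM in WT cells, a log2 fold change of 2.35 ± 0.26. The ranges of the groups were far apart for each of these. Smyd1, a methyltransferase of heart and skeletal muscle, had 21.1 and 30.4 CPM in KO cells, against 6.57 and 6.02 CPM in WT cells, a log2 fold change of 2.03 ± 0.23. Rragd, a GTPase that couples amino acids to mTORC1, had 47.4 and 40.8 CPM in KO cells, against 17.0 and 19.3 CPM in WT cells. Asf1a, a histone chaperone, had 52.8 and 65.9 CPM in KO cells, against 26.6 and 22.3 CPM in WT cells. The log2 fold change was 1.28 for both of the last genes. Mov10, a helicase found with the silencing complex, had 188 and 170 CPM in KO cells, against 88.3 and 88.4 CPM in WT cells, with a log2 fold change of 1.02 ± 0.15 and an edgeR adjusted p of 0.00304. Gfpt2, which feeds glucose carbon into hexosamine synthesis, had 184 CPM in both KO libraries, against 85.2 and 98.8 CPM in WT cells. Ak7, an adenylate kinase, and Dusp27, an inactive phosphatase of muscle, had log2 fold changes of 1.56 and 1.44, and Msln, the mesothelial surface protein mesothelin, one of 2.55.

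**Figure D1:**
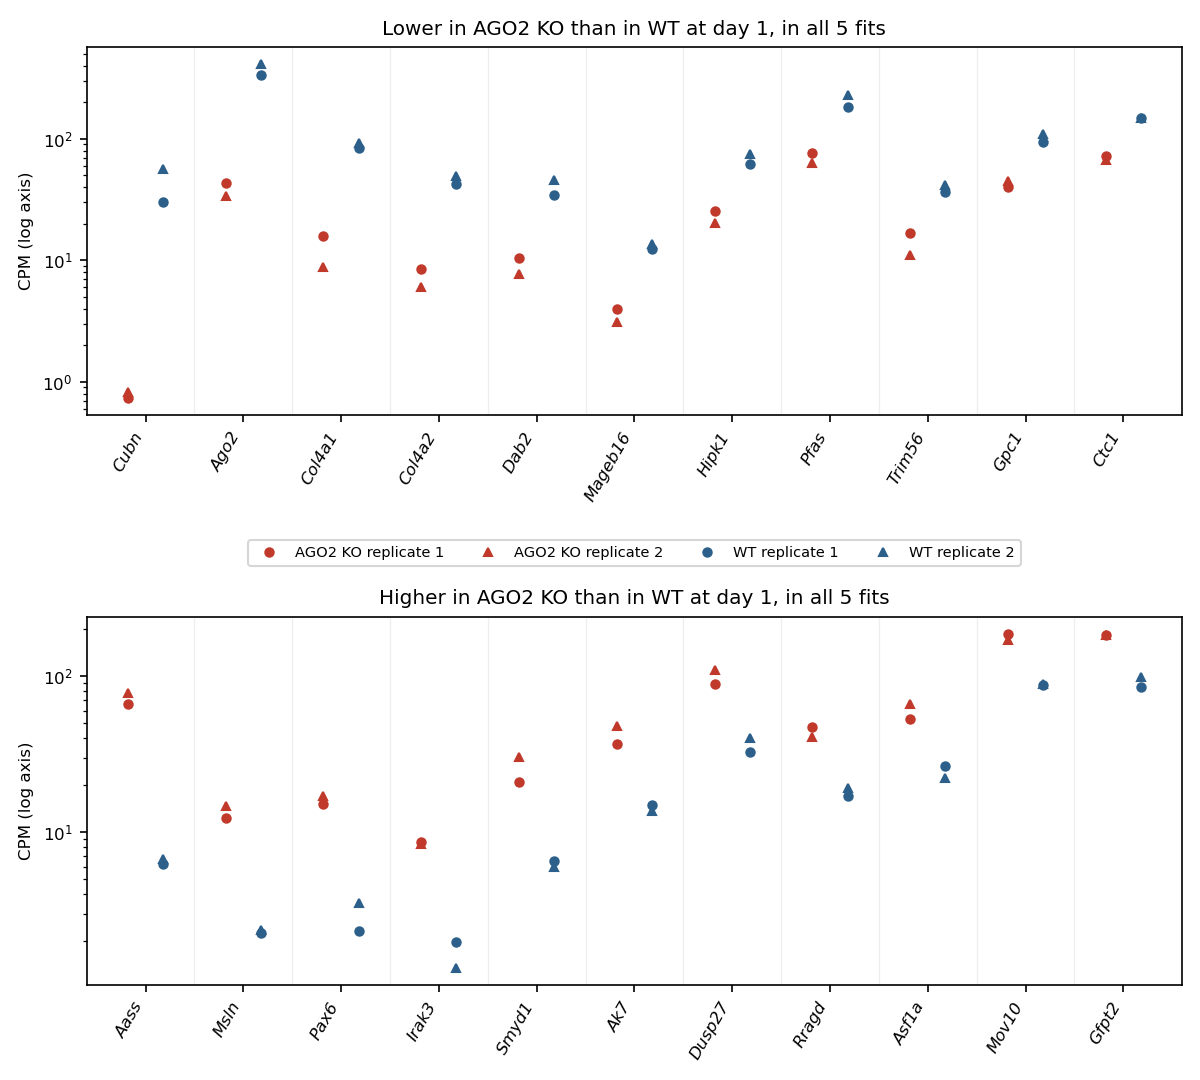
CPM (log axis) of the named genes that averaged at least 5 CPM and were called in the fit of all libraries and in each fit without 1 day 1 library; each point is 1 library, with AGO2 KO in red left of WT in blue. Genes with overlapping groups were not taken, so the KO libraries lie on one side of the WT libraries in each. Cubn was below 1 CPM in KO cells. Aass was at 66.0 and 78.1 CPM in KO cells, against 6.25 and 6.73 CPM in WT cells.

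Regulators of primitive endoderm were lower in KO cells. Of 15 tested members, 9 fell and none was higher, with a median log2 fold change of -1.42, against -0.02 over all genes tested. The list was chosen with earlier results of these data known, so its share and median are descriptive. Foxq1, a forkhead factor, had 1.59 and 1.11 CPM in KO cells, against 6.21 and 6.06 CPM in WT cells, a log2 fold change of -2.17 ± 0.36. Gata6 had 2.51 and 1.57 CPM in KO cells, against 15.1 and 10.9 CPM in WT cells. The KO and WT ranges did not overlap for any of the 9. Sox17 had 0.155 and 0.230 CPM in KO cells, against 1.12 and 0.925 CPM in WT cells, but was called in none of the 4 fits that left out a library. Tfec, a basic helix-loop-helix factor, had 1 read in the 2 KO libraries together, against 70 reads in the WT libraries, a WT over KO ratio of 68.3 with an exact 95% counting interval of 11.9 to 2740. Intervals here cover counting error only. When KO replicate 2 was left out, 2 of the 15 were called lower. In these bulk libraries, fewer cells of a type and less RNA per cell cannot be told apart.

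Visceral endoderm genes fell in 6 of 19 tested members, with a median log2 fold change of -1.02 and no member higher. The other 13 were not called. The tested members summed to 333 and 407 CPM in KO cells, against 359 and 521 CPM in WT cells, which overlap. Besides Cubn and Klb, the 6 lower members were Habp2, Amot, Amn and Lrp2. Amn, the membrane anchor of cubilin, had 0.928 and 1.61 CPM in KO cells, against 2.92 and 4.04 CPM in WT cells, a log2 fold change of -1.47 ± 0.34. Lrp2, the megalin receptor, had 99.4 and 93.1 CPM in KO cells, against 133 and 256 CPM in WT cells, so its WT libraries differed from each other by more than KO replicate 1 differed from WT replicate 1. Amot, a junctional regulator of Hippo signalling, had 6.38 and 3.96 CPM in KO cells, against 18.1 and 28.5 CPM in WT cells. Habp2, a secreted protease, had 1 read in KO cells and 52 in WT cells, a WT over KO ratio of 50.8 (8.72 to 2040). Cubilin, its anchor AMN, megalin and the adaptor DAB2 form 1 uptake complex, and all of their genes were lower in KO cells, but Lrp2 was called in 1 of the 4 fits that left out a library and was not called with the length trend removed (-0.28). The fit without KO replicate 2 called 3 of the 19 lower.

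Parietal endoderm and basement membrane genes fell in 5 of 22 tested members, with a median of -0.42 and none higher. Lama1, the laminin chain of the first basement membranes, had 15.9 and 10.3 CPM in KO cells, against 51.2 and 57.4 CPM in WT cells, a log2 fold change of -2.05 ± 0.31. Hspg2, the proteoglycan perlecan, had 149 and 127 CPM in KO cells, against 223 and 332 CPM in WT cells. Itga6, a laminin receptor subunit, had 105 and 71.2 CPM in KO cells, against 163 and 149 CPM in WT cells. Not every matrix gene moved with them. Sparc, a matrix glycoprotein abundant in parietal endoderm, had 193 and 209 CPM in KO cells, against 176 and 160 CPM in WT cells and was not called. Serpinh1, the collagen chaperone, was not called at a log2 fold change of -0.39 ± 0.16. Fibroblast and mesenchyme markers, another source of matrix RNA, summed to 657 and 483 CPM in KO cells, against 705 and 857 CPM in WT cells, with 1 of 17 tested members higher (Twist1) and none lower. Their part in the matrix result was not tested. Leaving out KO replicate 2 kept calls for the 2 collagen genes of the list only.

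Naive pluripotency genes moved in both directions. Of 18 tested members, 3 rose and 2 fell, with a median log2 fold change of 0.43. With the length trend removed 1 was higher, Klf2, and 1 lower, Klf5. Klf2, a naive-state factor, had 162 and 171 CPM in KO cells, against 63.9 and 45.8 CPM in WT cells, a log2 fold change of 1.60 ± 0.37. Tdh, the threonine dehydrogenase of embryonic stem cells, had 115 and 136 CPM in KO cells, against 58.0 and 46.1 CPM in WT cells. Dppa3, a maternal factor that guards methylation, had 20.3 and 23.5 CPM in KO cells, against 7.05 and 3.62 CPM in WT cells. Related factors went the other way, since Klf5 had 14.2 and 9.58 CPM in KO cells, against 24.2 and 23.8 CPM in WT cells, and Tbx3 had 120 and 91.9 CPM in KO cells, against 239 and 181 CPM in WT cells. The core factor Pou5f1 had 872 and 1182 CPM in KO cells, against 849 and 733 CPM in WT cells. This defining gene of stem cells was thus expressed in all 4 libraries. It was not called, at a log2 fold change of 0.38 ± 0.61, which does not show that it was unchanged. Of 16 primed epiblast genes only Dnmt3a, a DNA methyltransferase, was called, lower at -0.60 ± 0.17, and with the length trend removed its log2 fold change was -0.03 and it was not called. None of the naive or primed genes was called once KO replicate 2 was left out.

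Genes of the 2-cell-like state and germline genes went in opposite directions. In the 2-cell-like list 7 of 17 rose, with a median of 0.84 and none lower, with 3 called when WT replicate 2 was left out and none when KO replicate 2 was. Zscan4c had 39.7 and 49.9 CPM in KO cells, against 13.3 and 19.4 CPM in WT cells. Zscan4d had 36.8 and 47.2 CPM in KO cells, against 9.45 and 17.9 CPM in WT cells. These genes are near-identical copies, so reads can be split or lost between them and their values are uncertain. In the germline list 6 of 12 fell, with a median of -0.69, and 1 rose. Ddx4, the germ-cell helicase VASA, had 33.9 and 29.0 CPM in KO cells, against 52.1 and 47.1 CPM in WT cells. Dazl, a germ-cell RNA-binding protein, had 36.3 and 28.9 CPM in KO cells, against 73.7 and 55.4 CPM in WT cells. Mael, a factor of the piRNA pathway, had 25.6 and 26.2 CPM in KO cells, against 47.7 and 43.2 CPM in WT cells. Sycp1, Taf7l and Slc25a31 had log2 fold changes of -0.93, -1.08 and -1.05. The groups did not overlap for any of these, yet none of the 6 was called without KO replicate 2. The member that rose, Rpl10l, is a copy of a ribosomal protein gene, and its reads are uncertain for that reason.

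**Figure D2:**
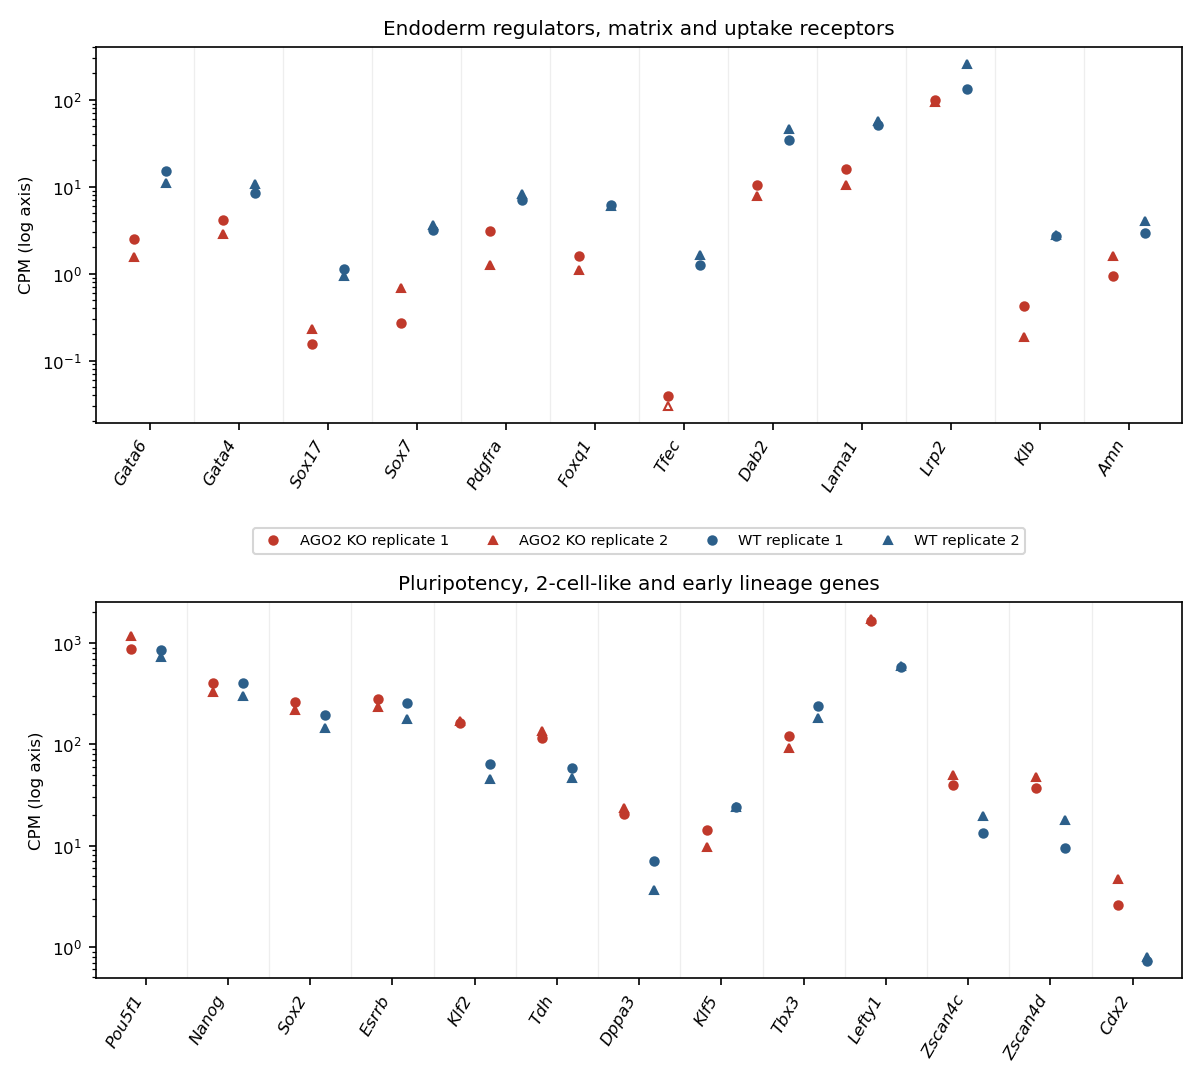
CPM (log axis) of endoderm genes (top) and of pluripotency, 2-cell-like and early lineage genes (bottom) by library, with AGO2 KO in red left of WT in blue; an open symbol stands for no read and is drawn at 0.03 CPM. The endoderm genes shown were all picked from genes called lower, so they lie lower in both KO libraries by that choice. Uncalled members of their lists are not shown. Nanog at 399 and 331 CPM in KO cells, against 400 and 296 CPM in WT cells, overlaps.

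Early lineage genes were at low levels and few were called. Of 16 primitive streak genes 3 rose, with a median of 0.26. With the length trend removed 1 was higher, Cdx2. Cdx2, a factor of trophectoderm and posterior mesoderm, had 2.59 and 4.70 CPM in KO cells, against 0.721 and 0.799 CPM in WT cells, a log2 fold change of 2.25 ± 0.41. Sp5, a WNT target, and Evx1, a factor of the posterior streak, had 24 and 14 reads in KO cells, against 2 reads and 1 read in WT cells, with KO over WT ratios of 12.3 (3.05 to 107) and 14.3 (2.18 to 606). T, Eomes and Mixl1, the usual first markers of the streak, were not called, and Mixl1 had 1.24 and 1.66 CPM in KO cells, against 1.32 and 1.18 CPM in WT cells. The trophoblast list, which also holds Cdx2, had 1 of 11 members higher and a summed level of 107 and 111 CPM in KO cells, against 144 and 117 CPM in WT cells. No member of either list was called in the fit without KO replicate 2.

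In the NODAL pathway, Lefty1, a secreted inhibitor of NODAL and a reported miR-302 target, had 1631 and 1707 CPM in KO cells, against 579 and 598 CPM in WT cells, a log2 fold change of 1.5 ± 0.38 with an edgeR adjusted p of 0.0291. It was called in 1 of the 4 fits that left out a library, and with the length trend removed it missed the threshold (1.29, edgeR adjusted p of 0.0566). Lefty2 had 630 and 453 CPM in KO cells, against 274 and 288 CPM in WT cells, and was not called. Nodal, the ligand, had 202 and 223 CPM in KO cells, against 114 and 125 CPM in WT cells, and was not called either. All 3 had KO values above both WT values. Acvr1b, the type I receptor for Activin and NODAL, had 48.1 and 35.8 CPM in KO cells, against 75.5 and 79.4 CPM in WT cells, a log2 fold change of -0.88 ± 0.17. Of the 19 tested members, Lefty1 was the 1 higher and Acvr1b the 1 lower, shares no larger than the 6.89% and 6.71% of all genes. In the BMP pathway 3 of 22 fell and none rose. Bmpr1a, a type I receptor, had 73.9 and 54.1 CPM in KO cells, against 105 and 110 CPM in WT cells. Smad5, which carries the signal to the nucleus, had 56.4 and 47.4 CPM in KO cells, against 80.1 and 95.1 CPM in WT cells. The ligand Bmp7 had 8.23 and 7.23 CPM in KO cells, against 14.3 and 13.2 CPM in WT cells. With the length trend removed Bmp7 was the 1 BMP gene still called, since Bmpr1a was at -0.38 and Smad5 at -0.32 (log2). No NODAL or BMP gene was called without KO replicate 2.

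WNT inhibitors moved in opposite directions. Notum, an enzyme that inactivates WNT ligands, had 25.1 and 30.9 CPM in KO cells, against 5.41 and 5.55 CPM in WT cells, a log2 fold change of 2.35 ± 0.43. Dkk1, which blocks the LRP co-receptors, had 0.155 and 0.0921 CPM in KO cells, against 1.72 and 1.60 CPM in WT cells, a log2 fold change of -3.65 ± 0.40. The co-receptors themselves were lower, Lrp5 at 48.2 and 42.5 CPM in KO cells, against 72.3 and 90.0 CPM in WT cells, and Lrp6 at 74.6 and 48.5 CPM in KO cells, against 93.5 and 112 CPM in WT cells. Of 37 WNT genes 2 rose and 4 fell, beside 6.89% and 6.71% of all genes tested, and with the length trend removed 1 was higher and 1 lower. The feedback target Axin2 was not called (log2 fold change -0.50 ± 0.29), and neither was Lef1 (1.45 ± 0.48). Dkk1 alone was called without KO replicate 2.

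Some FGF ligands were higher and a receptor and a co-receptor lower. Of 24 FGF and ERK genes 4 rose and 2 fell. With the length trend removed 5 were higher and 1 was lower, Klb, so the receptor Fgfr3 was no longer called. Fgf17 had 20.3 and 36.7 CPM in KO cells, against 3.73 and 5.68 CPM in WT cells, a log2 fold change of 2.60 ± 0.44. Fgf15, the endocrine ligand that acts with beta-Klotho, had 9.94 and 16.5 CPM in KO cells, against 2.80 and 3.95 CPM in WT cells. Klb, which encodes that co-receptor, fell, so ligand and co-receptor went in opposite directions. Fgfbp1, a carrier that releases FGFs from the matrix, had 12.8 and 21.7 CPM in KO cells, against 3.45 and 5.17 CPM in WT cells. Fgf4, the main FGF of the epiblast, was not called at 114 and 117 CPM in KO cells, against 65.3 and 68.1 CPM in WT cells. Fgfr2 was not called either, and Fgfr3 had 2.86 and 2.07 CPM in KO cells, against 4.09 and 5.64 CPM in WT cells. Of 6 PDGF genes 1 rose, a ligand, and 1 fell, a receptor, and the other 4 were not called. Pdgfc, a ligand of the alpha receptor, had 29.7 and 25.1 CPM in KO cells, against 4.17 and 5.68 CPM in WT cells, a log2 fold change of 2.48 ± 0.42. Pdgfra, that receptor, had 3.05 and 1.24 CPM in KO cells, against 7.05 and 8.24 CPM in WT cells, a log2 fold change of -1.81 ± 0.40. Klb was the only FGF or PDGF gene called without KO replicate 2.

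Some targets of Hedgehog signalling were higher and its co-receptors lower. Gli1, the standard transcriptional readout, had 59.8 and 64.8 CPM in KO cells, against 28.2 and 31.5 CPM in WT cells. Hhip, a ligand-binding inhibitor and target, had 10.7 and 9.58 CPM in KO cells, against 4.61 and 4.46 CPM in WT cells. The co-receptors Cdon and Boc had log2 fold changes of -0.96 ± 0.22 and -0.94 ± 0.24, and neither was called with the length trend removed (-0.48 and -0.74). Ptch1, also a target, had 247 and 143 CPM in KO cells, against 151 and 180 CPM in WT cells, which overlap. Of 13 members 3 rose and 2 fell, and none was called without KO replicate 2.

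Retinoic acid, the agent in the medium, has a set of well-known response genes. Of 20 members 1 rose, a share no larger than the 6.89% of all genes, and none fell. Crabp2, a carrier of retinoic acid, had 25.1 and 34.1 CPM in KO cells, against 13.7 and 12.6 CPM in WT cells. With the length trend removed 1 member was higher and 1 lower, and Crabp2 was not called (0.69). Cyp26a1, the retinoic acid hydroxylase, had 239 and 264 CPM in KO cells, against 259 and 227 CPM in WT cells, and Rarb, a receptor and direct target, had 11.0 and 11.6 CPM in KO cells, against 11.9 and 13.9 CPM in WT cells. The KO and WT values were close for both. Cyp26b1, a related hydroxylase, had 15.5 and 7.46 CPM in KO cells, against 71.3 and 77.4 CPM in WT cells, but missed the threshold at an edgeR adjusted p of 0.0525 with a log2 fold change of -2.69 ± 0.83. Among 38 Hox genes 2 fell, a share no larger than the 6.71% of all genes, and none rose. Hoxc4, one of those that fell, had a log2 fold change of -1.37 ± 0.39. No gene of the retinoic acid or Hox lists was called without KO replicate 2.

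Imprinted genes, which are expressed from 1 parental copy, rose in 9 of 31 tested members and fell in 2, with a median of 0.41. Meg3, Rian and Mirg are noncoding RNAs of a single domain on chromosome 12. Meg3 had 21.6 and 37.1 CPM in KO cells, against 10.3 and 14 CPM in WT cells. Rian had 49.3 and 40.3 CPM in KO cells, against 23.0 and 29.1 CPM in WT cells, and Mirg had 7.77 and 14.1 CPM in KO cells, against 3.37 and 4.16 CPM in WT cells. All 3 were thus higher in both KO libraries. Plagl1, a zinc finger factor, had 13.6 and 9.76 CPM in KO cells, against 1.64 and 1.30 CPM in WT cells, a log2 fold change of 2.98 ± 0.72. Cdkn1c, a cell-cycle inhibitor, had 71.9 and 89.7 CPM in KO cells, against 25.7 and 31.9 CPM in WT cells. Snrpn, a splicing protein gene, had 91.2 and 124 CPM in KO cells, against 58.5 and 53.2 CPM in WT cells, a log2 fold change of 0.94 ± 0.15. H19 rose at 26.1 and 38.3 CPM in KO cells, against 4.17 and 3.58 CPM in WT cells, while its neighbour Igf2 had 8.78 and 9.12 CPM in KO cells, against 11.0 and 11.7 CPM in WT cells and was not called. Igf2r, the receptor that clears IGF2, fell to 80.3 and 47.8 CPM in KO cells, against 136 and 171 CPM in WT cells. An antisense transcript overlaps Igf2r, and the strand setting of the counting is not given in the sources used here, so its value is uncertain. In the fit without KO replicate 2, 1 imprinted gene was called higher.

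Genes of the silencing machinery other than Ago2 showed small differences. Ago1 had 117 and 91.5 CPM in KO cells, against 105 and 128 CPM in WT cells. Ago3 had 17.0 and 13.9 CPM in KO cells, against 23.3 and 34.2 CPM in WT cells, a log2 fold change of -0.90 ± 0.29 with an edgeR adjusted p of 0.0509. Ago4 had 2.13 and 1.24 CPM in KO cells, against 2.36 and 3.37 CPM in WT cells. No other Argonaute gene was thus called in either direction. Of 18 members 5 fell, namely Ago2, Dicer1, which cuts miRNA precursors, Xpo5, which exports them, Cnot1, the scaffold of the deadenylase, and Xrn1, a 5′ exonuclease. Dicer1 had 149 and 119 CPM in KO cells, against 188 and 205 CPM in WT cells. With the trend over transcript length described below removed, Ago2 was the only member that stayed lower, Tnrc6a was called higher, and Dicer1 had a log2 fold change of 0.00. Ago2 alone was called without KO replicate 2.

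Cell-cycle genes moved in both directions, with 5 of 21 cyclins, kinases and inhibitors higher and 2 lower. Ccnd2, a D-type cyclin, had 56.6 and 58.7 CPM in KO cells, against 17.5 and 20.9 CPM in WT cells, a log2 fold change of 1.59 ± 0.27. Ccnd1 had 143 and 154 CPM in KO cells, against 82.6 and 92.5 CPM in WT cells. Their partner kinase Cdk4 had 503 and 664 CPM in KO cells, against 417 and 406 CPM in WT cells. Cdk4 was not called with the length trend removed (0.38). D-type cyclins and this kinase were thus higher together, although none was called without KO replicate 2. Of 14 replication licensing genes 1 rose, and of 20 p53 targets 2 rose, beside 6.89% of all genes tested. In the let-7 list, Mycn, a transcription factor of the MYC family, rose in KO cells, 1 of 13 members, at 22.5 and 18.7 CPM, against 14.8 and 8.41 CPM in WT cells. Lin28a, which blocks let-7 maturation, had 234 and 290 CPM in KO cells, against 204 and 211 CPM in WT cells, and was not called. No replication, p53 or let-7 list gene was called without KO replicate 2.

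Among genes averaging at least 100 CPM, the largest increases were in Trh and Klf2. Trh, the precursor of thyrotropin-releasing hormone, had 227 and 235 CPM in KO cells, against 48.8 and 57.4 CPM in WT cells, a log2 fold change of 2.12 ± 0.49. Fxyd6, a regulator of the sodium pump, had 170 and 183 CPM in KO cells, against 82.4 and 60.4 CPM in WT cells. Ckb, the brain creatine kinase, had 410 and 616 CPM in KO cells, against 236 and 220 CPM in WT cells. In these, the KO libraries lay well above the WT libraries. Scd1, the fatty acid desaturase, had the largest fall after Ago2, to 127 and 62.7 CPM in KO cells, against 290 and 309 CPM in WT cells, a log2 fold change of -1.66 ± 0.48. It was not called with the length trend removed (-1.43). Etnk1, an enzyme of phosphatidylethanolamine synthesis, had 532 and 401 CPM in KO cells, against 1252 and 1208 CPM in WT cells, a log2 fold change of -1.40 ± 0.20. Ep300, a histone acetyltransferase, had 138 and 85.1 CPM in KO cells, against 217 and 301 CPM in WT cells. Genes of cholesterol synthesis and uptake fell in 5 of 19 members, and none rose. With the length trend removed 1 of these genes was lower. Ctsh, a lysosomal protease, had 0.503 and 0.553 CPM in KO cells, against 4.45 and 4.75 CPM in WT cells, the only call among 17 lysosomal genes. No cholesterol or lysosomal gene was called without KO replicate 2. No glycolysis gene of 22, immediate early gene of 12 or blood and endothelium marker of 8 was called.

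**Figure D3:**
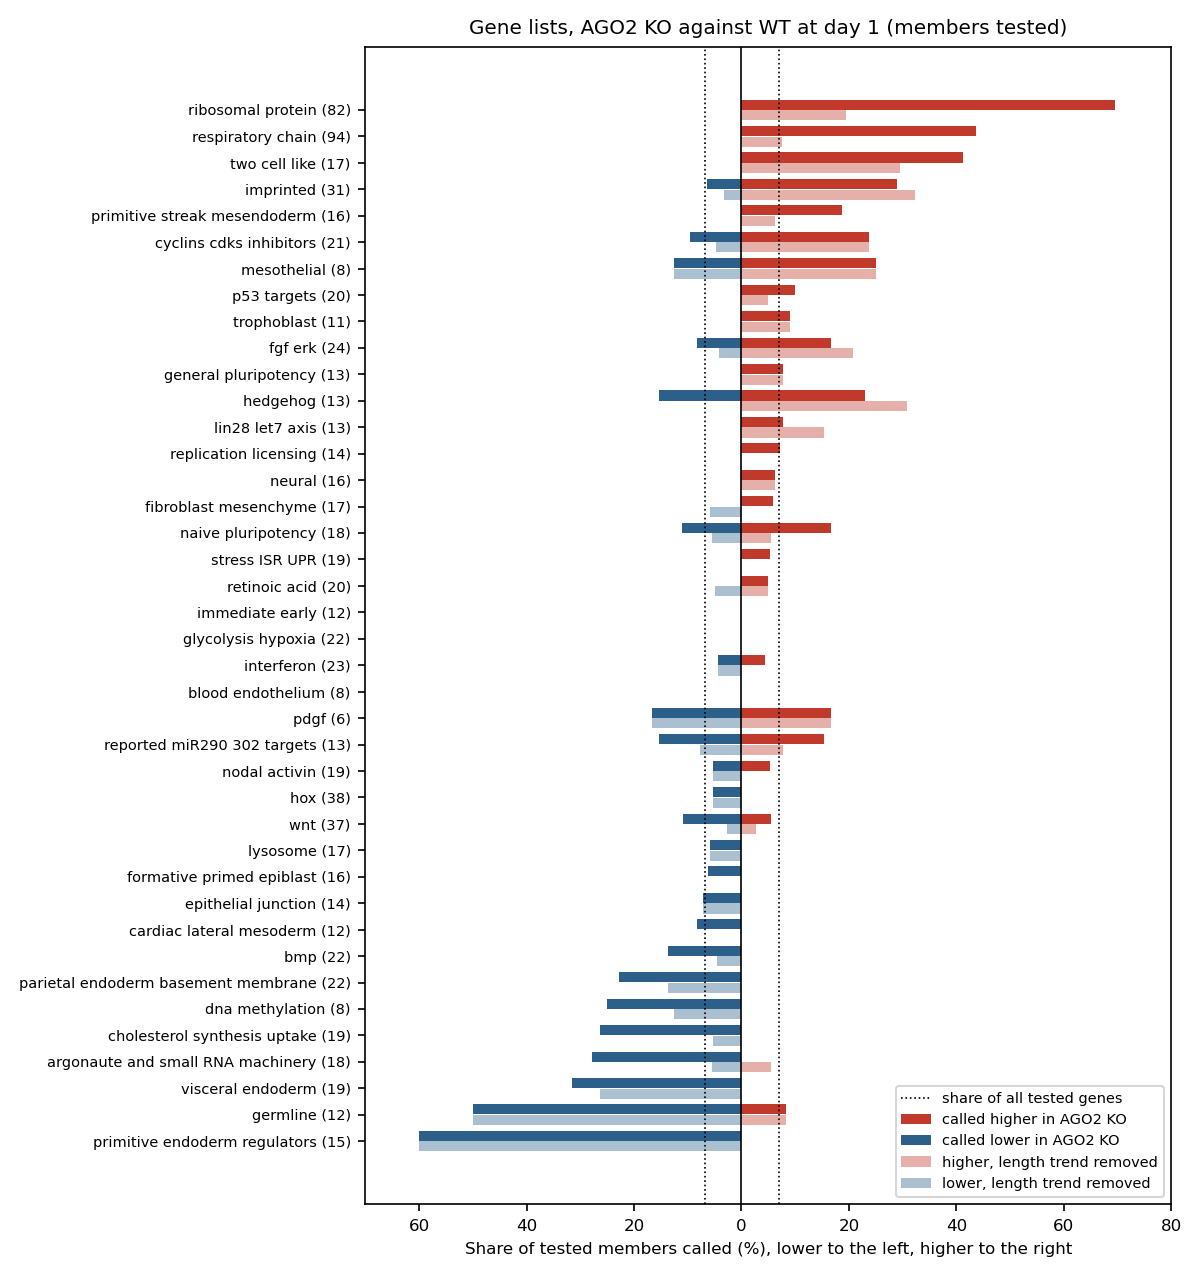
Share of the tested members of each gene list called lower (left, blue) and higher (right, red) in AGO2 KO than in WT cells, with the number of tested members in brackets; pale bars give the same after the transcript length trend was removed, counting members with no length as not called, and dotted lines give the share of all genes called in each direction. Primitive endoderm regulators keep 9 of 15 members lower in both fits, whereas the ribosomal protein genes have 57 of 82 higher and then 16. List members were chosen with earlier results of these data known, so the distance from the dotted lines is descriptive.

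The calls depended on transcript length, in a way that also separated replicates. Genes were split into 5 equal classes by their longest annotated transcript (GENCODE M21). The median log2 fold change was 0.50 in the shortest class, up to 1544 bases, and then 0.15, -0.02, -0.15 and -0.43 in the longest, from 4961 bases. In the shortest class 630 genes were called higher and 39 lower, against 51 higher and 624 lower in the longest. A slope in the same direction stood between the KO replicates, with a median for replicate 2 over replicate 1 of 0.31 in the shortest and -0.33 in the longest class. Between KO replicate 1 and WT replicate 1 the medians were 0.22 and -0.18. The WT replicates sloped the other way, from -0.13 to 0.14 for replicate 2 over replicate 1. Length and genotype thus moved together in these 4 libraries, and what sets the slope was not tested.

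Gene groups with short transcripts carried this trend. Ribosomal protein genes rose in 57 of 82 members with none lower, at a median of 0.70, and their median between the KO replicates was 0.56. Subunits of the respiratory chain rose in 41 of 94 with none lower, at a median of 0.59 and 0.51 between the KO replicates. Rpsa, a subunit of the small ribosomal subunit, had 3378 and 4924 CPM in KO cells, against 2771 and 2346 CPM in WT cells. None of the members of either list was called without KO replicate 2. When the trend of each library over transcript length was removed, a fit chosen after the data were seen, 730 genes were higher (4.26% of 17141) and 439 lower (2.56%), and 841 genes were called in the same direction in both fits. Ribosomal protein genes then had 16 members higher at a median of 0.29, and respiratory chain genes 7 at 0.16. Primitive endoderm regulators had 9 of 15 members lower in that fit at a median of -1.33, against -1.42 before. Visceral endoderm genes had 5 lower at a median of -0.69, against 6 at -1.02 before, and basement membrane genes 3 at -0.22, against 5 at -0.42. Hspg2, Lrp2 and the co-receptors Lrp5 and Lrp6, which have long transcripts, were no longer called.

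**Figure D4:**
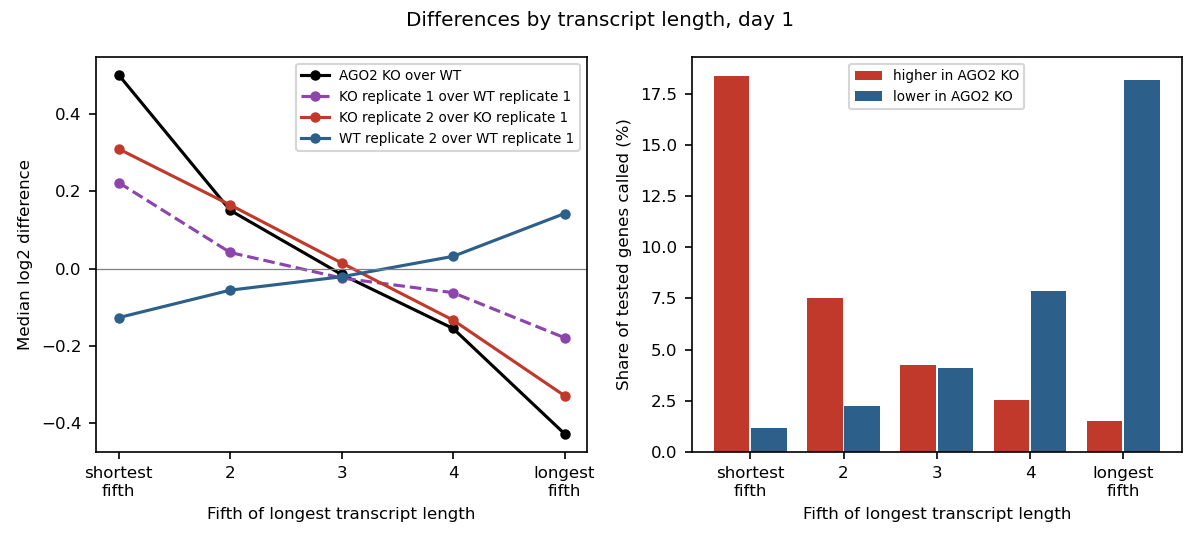
Left, median log2 difference over 5 classes of transcript length for AGO2 KO over WT (black), KO replicate 1 over WT replicate 1 (purple), KO replicate 2 over replicate 1 (red) and WT replicate 2 over replicate 1 (blue); right, share of genes called higher (red) or lower (blue) in KO than in WT cells. The KO over WT median runs from 0.50 in the shortest class to -0.43 in the longest, and the red line within the KO group falls in the same direction, from 0.31 to -0.33.

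Since AGO2 acts through miRNAs, genes were grouped by the number of matches to the seed of miR-294 and miR-302b, the letters AGCACTT on the transcript strand, in the longest annotated 3′ UTR. This grouping was chosen after the data were seen and is given without a test. Of 10377 genes with a 3′ UTR and an average of at least 5 CPM, 8498 had no match, 1519 had 1 and 360 had 2 or more. The median log2 fold change was 0.02 with no match, -0.12 with 1 and -0.17 with 2 or more, so genes with matches were lower. Their 3′ UTRs were longer, with medians of 992, 2302 and 3888 bases. With the length trend removed the order was the opposite, at 0.08, 0.10 and 0.18, and the share called higher was 5.71%, 6.71% and 13.1%. The share called lower in that fit was 2.06%, 2.11% and 2.78%. For miR-17-5p, whose seed overlaps, the medians with the trend removed were 0.08, 0.09 and 0.18. For miR-9-5p, a miRNA of neural cells, they were 0.09, 0.06 and 0.06, but the share called higher rose too, at 5.92%, 7.18% and 7.8%. With 2 or more matches that share also exceeded the share with none for let-7 (8.9% against 6.05%) and miR-200 (9.93% against 5.96%). It was lower for miR-25/92 (4.23% against 6.14%) and, on 3 genes, for miR-208 (0% against 6.02%). A higher share with 2 or more matches was thus also seen for other seeds, and was largest for the miR-294 seed. Medians with the trend removed were also taken within 3′ UTRs of up to 500, 1000 and 2000 bases and longer. With a miR-294 match they were 0.14, 0.23, 0.07 and 0.10, against 0.12, 0.09, 0.04 and 0.05 without. For miR-17-5p they were 0.19, 0.17, 0.08 and 0.09, against 0.12, 0.09, 0.04 and 0.05. For miR-9-5p they were 0.12, 0.09, 0.03 and 0.07, against 0.12, 0.10, 0.05 and 0.07. The sign of the relation for the miR-294 seed depends on how length is treated.

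Among genes higher in all 5 fits, 5 of the 12 with a 3′ UTR held a match to the miR-294 seed (41.7%), against 3 of 22 that were lower in all 5 fits (13.6%) and 18.1% of all genes of at least 5 CPM. The 5 are Asf1a, Gfpt2, Pax6, Rragd and Smyd1, whose windows are printed above. The median 3′ UTR was 928.5 bases in the 12 and 1350 bases in the 22. The 12 and 22 were not limited to genes of at least 5 CPM, unlike the 18.1%. Among all called genes of at least 5 CPM with a 3′ UTR the shares went the other way, with 89 of 773 called higher (11.5%) and 192 of 814 called lower (23.6%) holding a match. In a list of 13 reported targets of the miR-290 and miR-302 clusters, Lefty1 and Ei24 rose and Dkk1 and Tgfbr2 fell, and Dkk1 alone was called without KO replicate 2. Ei24, a p53-induced gene, had 315 and 301 CPM in KO cells, against 214 and 184 CPM in WT cells. Tgfbr2, the type II TGF-beta receptor, had 0.812 and 0.737 CPM in KO cells, against 2.40 and 1.93 CPM in WT cells. Genes with 2 matches that were higher in both fits included Plekhm1, an adaptor of lysosome fusion, at 95.8 and 98.2 CPM in KO cells, against 56.7 and 63.8 CPM in WT cells, and Cspg5, a neural proteoglycan, at 11.3 and 10.2 CPM in KO cells, against 4.97 and 2.48 CPM in WT cells. Each was called in 1 of the 4 fits that left out a library.

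By chromosome, genes of chromosomes 15 and 11 stood apart. Of 440 chromosome 15 genes averaging at least 5 CPM, 4 were called higher (0.909%) and 53 lower (12%) in KO cells, with a median log2 fold change of -0.18. On chromosome 11, 123 of 916 were higher (13.4%) and 27 lower (2.95%), at a median of 0.14. The medians of the other chromosomes lay between -0.10 and 0.11. On chromosome 15 the shift was already present between KO replicate 1 and WT replicate 1 (-0.17), whereas the median was 0.01 between the KO replicates and 0.03 between the WT replicates. It was alike in the 220 genes nearer the start of the chromosome (-0.18) and in the other 220 (-0.17), and was -0.10 with the length trend removed, against 0.02 to 0.18 on the other chromosomes in that fit. On chromosome 11 the median between KO replicate 1 and WT replicate 1 was 0.12. Ago2, Dab2, Acvr1b, Fzd6, Hoxc4 and Ep300, all lower in KO cells, lie on chromosome 15, and their fold changes are larger than this shift. Within 1000000 bases of Ago2, the predicted gene Gm3150 was called higher (log2 fold change 1.45, edgeR adjusted p of 0.0376), whereas the neighbours Ptk2, a focal adhesion kinase, Chrac1, a chromatin remodelling subunit, and Trappc9, a trafficking subunit, were not called. Copy number was not measured in these data.

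**Figure D5:**
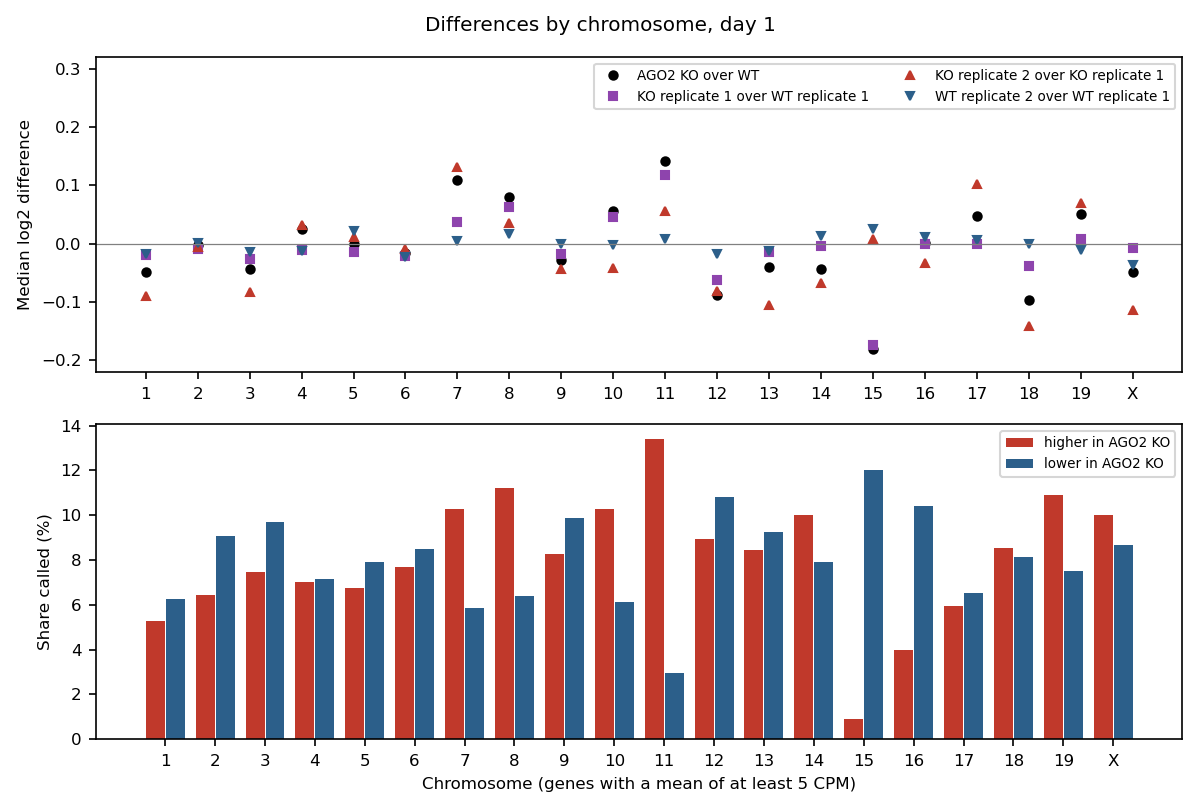
Top, median log2 difference of genes averaging at least 5 CPM by chromosome for AGO2 KO over WT (black circles), KO replicate 1 over WT replicate 1 (purple squares), KO replicate 2 over replicate 1 (red triangles) and WT replicate 2 over replicate 1 (blue triangles); bottom, share of those genes called higher (red) or lower (blue) in KO cells. Chromosome 15 has the lowest KO over WT median, -0.18, and chromosome 11 the highest, 0.14.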

How the data were processed

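Per the labels, polyadenylated RNA was extracted with Trizol and made into Illumina TruSeq libraries. The deposited values are raw read counts per gene symbol, whole numbers whose totals differ between libraries. The submitters' processing notes list the mm10 build and the tools STAR (2.5.0c) and featureCounts (1.4.5-p1). The labels call the protocol reverse-stranded, and the annotation and the strand setting of the counting are not given in the sources used here.

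Counts of the 16 libraries of days 1 to 4, in 8 groups of 2, were fitted with edgeR 4.0.16 (R 4.3.3), with TMM scaling, the expression filter by group, robust quasi-likelihood estimation and no covariate. Only KO against WT at day 1 was tested, and the other libraries served to estimate the spread. Of 30590 symbols, 17694 were tested. CPM are counts per 1000000 of the TMM-scaled library size, computed here from the deposited counts, and SEs come from the quasi-likelihood F statistic. The test was checked on simulated counts. The naming rule took genes called in all 5 fits (up to 15 each way, mean of at least 5 CPM, no overlap of groups). It also took abundant called genes (mean of at least 100 CPM, up to 8 each way, no overlap of groups). From each list it took those with the smallest p (up to 6). Genes outside this rule, such as uncalled pathway members, those below 5 CPM and those with seed matches, were chosen after their values were seen. Members and all 41 lists were chosen with earlier results of these data known. Positions, transcript lengths (17141 tested genes) and 3′ UTRs came from GENCODE M21 (GRCm38), and miRNA and promoter sequences from RefSeq. The length-adjusted fit used, as an offset, a lowess curve (span 0.3) of each library's log2 counts over log2 transcript length. Same-numbered KO and WT replicates did not deviate together (r = -0.0352 over 17694 genes), so the numbers were not taken as pairs. Alternatives were other scalings, filters and tools (DESeq2 1.42.0), a 2-fold threshold, a replicate block, the day 1 libraries alone and each library left out. The other samples of the series were not analysed here. Some genes that the naming rule takes are not reported here. Totals of 22966542 to 25954555 counts per library limit the precision of genes with few reads, and intervals cover counting error only.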

Additional observations from a re-analysis of the deposited data

How the results depend on the processing

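The count of 2406 called genes (1219 higher, 1187 lower) stayed within 1.5 times under the other scalings, tools and the fit of the day 1 libraries alone. It came to 3754 (1875 higher, 1879 lower) with no expression filter, 1050 (512 and 538) with a 2-fold threshold, and 1169 (730 and 439) with the transcript length trend removed, which was chosen after the data were seen; there 62.4% of the calls were higher, against 50.7% in the fit reported. Total counts without TMM gave 763 higher and 1528 lower, 33.3% higher. Leaving out 1 library gave 45 to 4225 calls, 21 to 2479 higher and 24 to 1746 lower, and a log2 fold change of Ago2 of -3.40 to -3.06. A group with 1 library left takes its spread from the other groups, and these fits also have fewer libraries. Of 140 named called genes, 27 were still called without KO replicate 2, 34 without WT replicate 2, 71 without WT replicate 1 and 130 without KO replicate 1. With the length trend removed 95 were, and Dicer1 changed sign, to 0.0019 from -0.56 (log2). In the length-adjusted fit, leaving out 1 library gave 75 to 1859 calls. The cause of these differences between libraries was not tested.

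With the replicate number as a block, 1881 genes were called, 953 higher and 928 lower. The numbers do not pair the samples, so a call lost there is not read as a weaker effect, and it changed the call of 11 of the 140 genes.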
